A study of Mus musculus with 6 samples.

Results

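Transcripts of 42 genes of the WNT signalling pathway were examined in whole testes of mice that lacked Nxf2, a member of the NXF family of mRNA export receptors, and of wild-type mice. The genes were taken from a list of ligands, receptors, secreted inhibitors, cytoplasmic transducers and nuclear effectors, and each was read at the probe set with the highest mean signal over all 6 arrays among probe sets that name a single gene. Of the 42 genes, 41 had such a probe set, out of 18193 genes on the array. Tcf7 had none and has no value here. A further 10 were too dim to be tested, and 31 were tested, out of 12971 tested genes in all.

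The 6 samples came from juvenile mice at postnatal day 21, 3 of them lacking Nxf2 (knockout, KO) and 3 with intact Nxf2 (wild type, WT), each read as total testis RNA on 1 Affymetrix array. The labels give no strain, no description of the Nxf2 allele and no number of animals per sample, so p-values measure only the spread between these samples, which may be technical. The submitters describe 3 pairs of WT and KO testes, but no label ties a replicate number to a pair, so samples were compared unpaired. The comparison asks which transcripts differ between KO and WT testes at an age at which the submitters describe testis weight as similar.

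WNT proteins are secreted lipid-modified ligands that bind Frizzled receptors together with LRP or ROR co-receptors. In the absence of a ligand, a complex of AXIN, APC and GSK3 marks β-catenin for destruction. When a ligand is bound, Dishevelled proteins inactivate that complex and β-catenin enters the nucleus, where it joins TCF/LEF factors and displaces Groucho/TLE co-repressors. In the mouse testis, undifferentiated spermatogonia have been described as WNT-responsive cells that express Axin2, and Sertoli cells as a source of Wnt6.

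The deposited signals had medians of 37.1 to 40.9 on the 6 arrays, and the number of arrays limits the precision. The Nxf2 signal was 116, 106 and 131 on the KO arrays and 374, 340 and 386 on the WT arrays, which do not overlap. Nxf2 was therefore lower in every sample labelled KO (log2 difference -1.59, SE 0.0999, limma adjusted p = 0.000488). Each marker list of a testis cell type held tested genes, but the presence of a cell type was not tested. Insl3, Lhcgr, Hsd3b6, Nanos2 and Plin1 had no usable probe set, and Prm2 and Tie1 were too dim. The elongating spermatid markers Tnp1, Tnp2 and Prm1, with mean signals of 23.4, 28.8 and 28.6, lay close to the filter of 20.5. Several lists differed between the groups. A marker is said to rise or fall where its adjusted p in limma was under 0.05. Of all tested genes, 2.98% rose and 7.37% fell by that rule. Of the Sertoli cell markers, 4 of 10 rose, with a summed signal of 6510 to 6880 in KO and 5673 to 5957 in WT. Of the undifferentiated spermatogonia markers, 4 of 7 rose (3263 to 3308 against 2705 to 2741). Gfra1 and Id4, of the same list, had a lower KO mean (log2 difference -0.15 each) and were not called. Of the Leydig cell markers, 2 of 5 rose (2474 to 3635 against 2054 to 2321), and of the endothelial markers 2 of 6 (244 to 334 against 200 to 215). Cdh5, of the endothelial list, had a lower KO mean (log2 difference -0.078) and was not called. Of the round spermatid markers, 8 of 9 fell (2138 to 2229 in KO against 3097 to 3514 in WT), as did 4 of 7 elongating spermatid markers (185 to 261 against 399 to 893) and 4 of 8 pachytene spermatocyte markers (6151 to 7093 against 7472 to 7860). Of the differentiating spermatogonia markers, 1 of 6 rose and 1 fell (2366 to 2447 against 2300 to 2367). In whole tissue, fewer cells of a type and less RNA per cell cannot be told apart.

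The 2 WNT genes that rose in KO testes were the receptors Fzd1 and Fzd3, and no WNT gene on the list fell. Genes with an adjusted p under 0.05 in limma (Benjamini-Hochberg, all tested probe sets) are termed called. By that rule 2.98% of all tested genes were called higher and 7.37% lower, so that 0.923 of 31 genes would be called higher at the background share. At an unadjusted p under 0.05, 10 of the 31 genes were higher and 1 was lower, where the shares of all tested genes were 18.5% and 16.4%. The same shares are the background for the counts by role and class given below. The KO mean was higher for 24 of the 31 genes (77.4%) and lower for 7, while 56.9% of all tested genes had a higher KO mean. After centring each array on its median, which turned the sign of Ror2 and Dvl1, the count was 22 higher and 9 lower, with 48.8% of all tested genes higher. The median log2 difference was 0.15 over the 31 genes, with a range from -0.24 to 0.45, against 0.036 over all tested genes.

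In 10 of the 31 genes (32.3%) every KO array lay above every WT array, where 21.5% of all tested genes did so. They were Fzd1, Fzd3, Lrp6, Frzb, Axin2, Apc, Gsk3b, Tcf7l2, Tle1 and Tle3. In 3 genes (9.68%), Fzd6, Dkk3 and Lef1, every KO array lay below every WT array, against 18.3% of all tested genes. The remaining 18 genes overlapped between the groups. The plot of log2 differences by role shows that the differences were small throughout, with no tested gene reaching a log2 difference of 0.5.

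**Figure D1:**
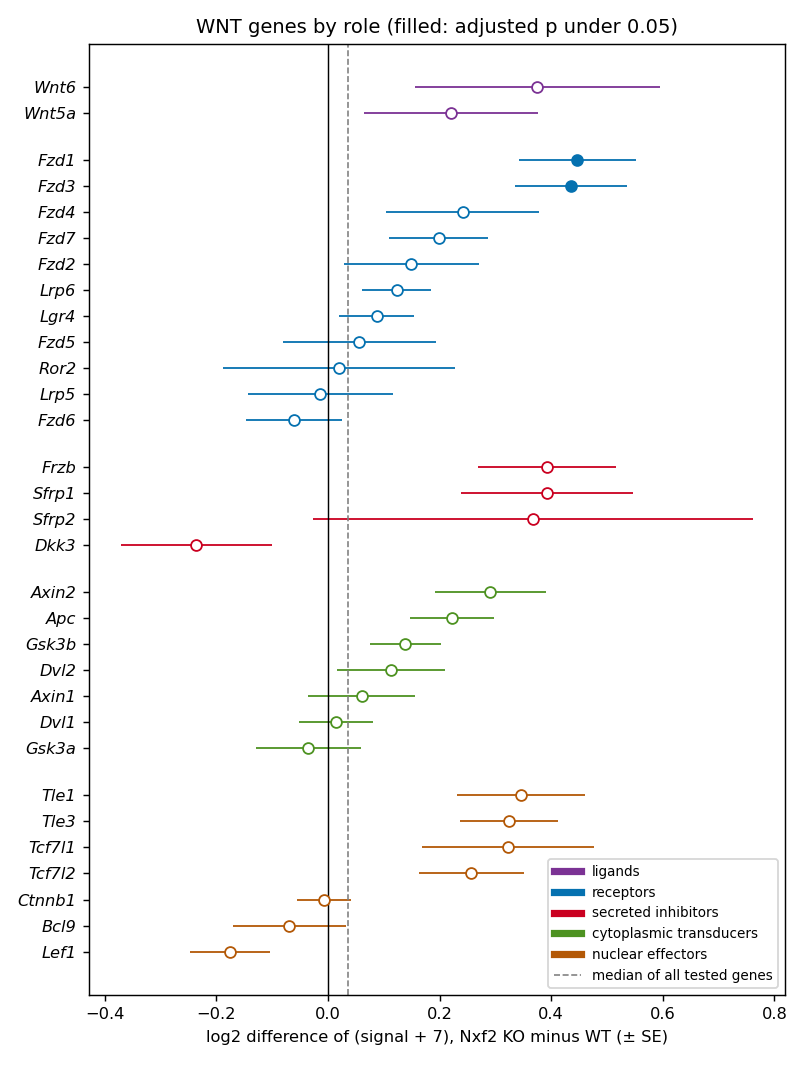
Log2 difference of (signal + 7), KO minus WT, for the 31 tested WNT genes, ordered within each role; points are the fitted difference, bars are ± SE, and the dashed line is the median of all tested genes (0.036). Filled points, Fzd1 (0.45) and Fzd3 (0.44), are the genes with an adjusted p under 0.05, and the lowest point is Dkk3 (-0.24).

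Of the 6 ligands on the list, Wnt5a and Wnt6 were bright enough to be tested, and neither was called. Wnt5a, which acts mainly through β-catenin-independent signalling, had signals of 189, 163 and 164 on the KO arrays and 185, 150 and 113 on the WT arrays. The groups overlapped, since WT replicate 1 lay within the range of the KO arrays. The log2 difference was 0.22 (SE 0.156, 95% confidence interval -0.13 to 0.57, adjusted p = 0.377). Single WT arrays moved it, to 0.38 without WT replicate 1 and to 0.045 without WT replicate 3, and its sign turned when arrays were weighted by their fit, to -0.047 (adjusted p = 0.815). The other tested Wnt5a probe sets gave 0.37 and 0.31, also uncalled.

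Wnt6 had signals of 75.3, 90.9 and 123 in KO and 67.1, 53.6 and 99.7 in WT. WT replicate 3 lay within the KO values. The log2 difference was 0.38 (SE 0.22, 95% confidence interval -0.11 to 0.86, adjusted p = 0.286), and the second Wnt6 probe set gave 0.29. Single arrays moved it, to 0.20 without KO replicate 3, 0.19 without WT replicate 2 and 0.60 without WT replicate 3. The interval of neither ligand excludes 0. Wnt2b, Wnt3, Wnt4 and Wnt11 were below the filter. Wnt4, a ligand known from gonad development, read 13.4, 10.8 and 15.5 in KO and 9.75, 7.63 and 11 in WT, and Wnt11, a ligand of β-catenin-independent signalling, read 9.66, 16.9 and 11.8 against 10.7, 20.2 and 12.3. Both overlapped between the groups.

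The receptors held both genes that rose. Of 14 receptor genes, 11 were tested, 9 had a higher KO mean and 2 a lower one, and the median log2 difference was 0.12. At an unadjusted p under 0.05, 3 receptors were higher and 0 lower. Fzd1, a Frizzled receptor, had signals of 226, 224 and 265 on the KO arrays and 174, 156 and 189 on the WT arrays. The lowest KO array stood above the highest WT array. The means were 238 ± 23.3 in KO and 173 ± 16.1 in WT (SD, n = 3 each), a 1.36-fold increase on the scale of signal + 7 (log2 difference 0.45, SE 0.104, 95% confidence interval 0.21 to 0.68, adjusted p = 0.0324 in limma).

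Fzd3, the Frizzled receptor known for axon guidance and planar polarity, had signals of 189, 187 and 191 in KO and 135, 126 and 154 in WT. The KO arrays lay close together and above all WT arrays. The means were 189 ± 1.59 and 139 ± 14.3 (SD, n = 3 each), a 1.35-fold increase (log2 difference 0.44, SE 0.1, 95% confidence interval 0.21 to 0.66, adjusted p = 0.0308 in limma). The 4 other tested Fzd3 probe sets were also higher in KO on average, by 0.15 to 0.37 on the log2 scale, but none was called (adjusted p 0.104 to 0.342). The probe set used here carries the array's suffix for probes shared among transcripts.

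Neither call held in every fit. Both genes kept a higher KO mean in all 16 alternatives, with log2 differences of 0.37 to 0.51 for Fzd1 and 0.28 to 0.51 for Fzd3. Leaving out any KO array, WT replicate 1 or WT replicate 2 ended both calls, as did testing without the dim filter or without the intensity trend, and median centring ended that of Fzd3. The adjusted p over all alternatives ran from 0.00287 to 0.122 for Fzd1 and from 0.00133 to 0.13 for Fzd3.

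The 5 other tested Frizzled receptors of the 42-gene list were not called. Fzd7 gave a log2 difference of 0.20 (adjusted p = 0.173), Fzd4 0.24 (adjusted p = 0.272), Fzd2 0.15 (adjusted p = 0.44), Fzd5 0.06 (adjusted p = 0.817) and Fzd6 -0.06 (adjusted p = 0.673). Fzd9, which is not on that list, read 42.1, 51 and 54.7 in KO and 38.1, 34 and 44.2 in WT and was not called either (log2 difference 0.30, adjusted p = 0.214). Differences between family members were not tested. The co-receptor Lrp6, which is phosphorylated when a ligand binds, read 490, 460 and 486 in KO and 453, 432 and 432 in WT. These values did not overlap, but the log2 difference was only 0.12 and was not called (adjusted p = 0.222). The related co-receptor Lrp5 was at -0.01 (adjusted p = 0.956).

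Lgr4, a receptor for R-spondins, gave 0.09 (adjusted p = 0.418), and Ror2, a tyrosine kinase receptor for Wnt5a, gave 0.02 (adjusted p = 0.96). Ror1 was too dim to be tested, and read 18.3, 18 and 30.1 in KO and 16, 17.6 and 12.7 in WT. Its KO arrays lay above its WT arrays by a narrow margin, and it was the only one of the 10 dim WNT genes without overlap, where 10.1% of all 5222 dim genes had KO above WT. Fzd8 and Lgr5 were also below the filter.

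The RefSeq promoter table (GRCm38.p6) held windows from 250 bases before to 50 bases after the start for 29 of the 42 genes, 36 windows in all. The TCF/LEF core, searched as CTTTGAA and CTTTGAT on both strands, was found in 2 of the 36 windows, those of Gsk3a and Wnt11, and in 8.65% of all 32851 windows. Gsk3a was tested and not called, and Wnt11 was too dim to be tested. The shorter CTTTG, which both cores contain, was found in 18 of the 36 windows and in 53.9% of all windows. The 250 bases before the start of Fzd1 are shown because Fzd1 is a gene that rose and has an entry in the table. They lie at chr5:4758217-4758466 on the minus strand, and CTTTG on either strand is in capitals. The window holds CTTTG on both strands but no full core.
Fzd1: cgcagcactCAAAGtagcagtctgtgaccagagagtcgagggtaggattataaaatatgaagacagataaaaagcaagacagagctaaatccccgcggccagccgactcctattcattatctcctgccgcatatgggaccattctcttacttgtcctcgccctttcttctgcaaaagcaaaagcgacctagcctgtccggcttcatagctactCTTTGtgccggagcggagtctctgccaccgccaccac

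The secreted inhibitors had the highest median of the 5 roles, 0.38 over 4 tested genes of 6, with none called. At an unadjusted p under 0.05, 2 of the 4 were higher and 0 lower. Frzb, a secreted Frizzled-related protein that binds WNT ligands, had signals of 210, 242 and 285 on the KO arrays and 177, 169 and 208 on the WT arrays. All KO arrays lay above all WT arrays, the closest pair differing little. The means were 246 ± 37.7 and 185 ± 20.8 (SD, n = 3 each), with a log2 difference of 0.39 (SE 0.124, 95% confidence interval 0.12 to 0.67, adjusted p = 0.0783). Frzb was called in 2 of 16 alternatives, with an adjusted p in limma of 0.00655 to 0.216 over all of them. The second Frzb probe set read 34.9, 51.1 and 56.1 against 31.2, 34.5 and 31.9 (log2 difference 0.44, adjusted p = 0.126), again without overlap.

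Sfrp1, of the same family, had signals of 199, 234 and 303 in KO and 217, 163 and 172 in WT. WT replicate 1 was above KO replicate 1, so the groups overlapped. The log2 difference was 0.39 (SE 0.154, 95% confidence interval 0.05 to 0.73, adjusted p = 0.132). It was 0.235 without KO replicate 3 and 0.12 with array weights. Sfrp2 was the most scattered gene of the list, with 51.3, 165 and 154 in KO and 136, 72.2 and 59.4 in WT. Its lowest value was on a KO array and its SE of 0.394 exceeded its log2 difference of 0.37 (adjusted p = 0.568). Dkk3, a divergent member of the Dickkopf family, went the other way, with 39.6, 35.1 and 41.6 in KO and 52.7, 43.2 and 45 in WT. The groups did not overlap, yet the log2 difference of -0.24 (SE 0.136) was not called (adjusted p = 0.277). With array weights Dkk3 was called lower. Sfrp4 and Wif1, a secreted protein that binds WNT ligands, were too dim to be tested.

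**Figure D2:**
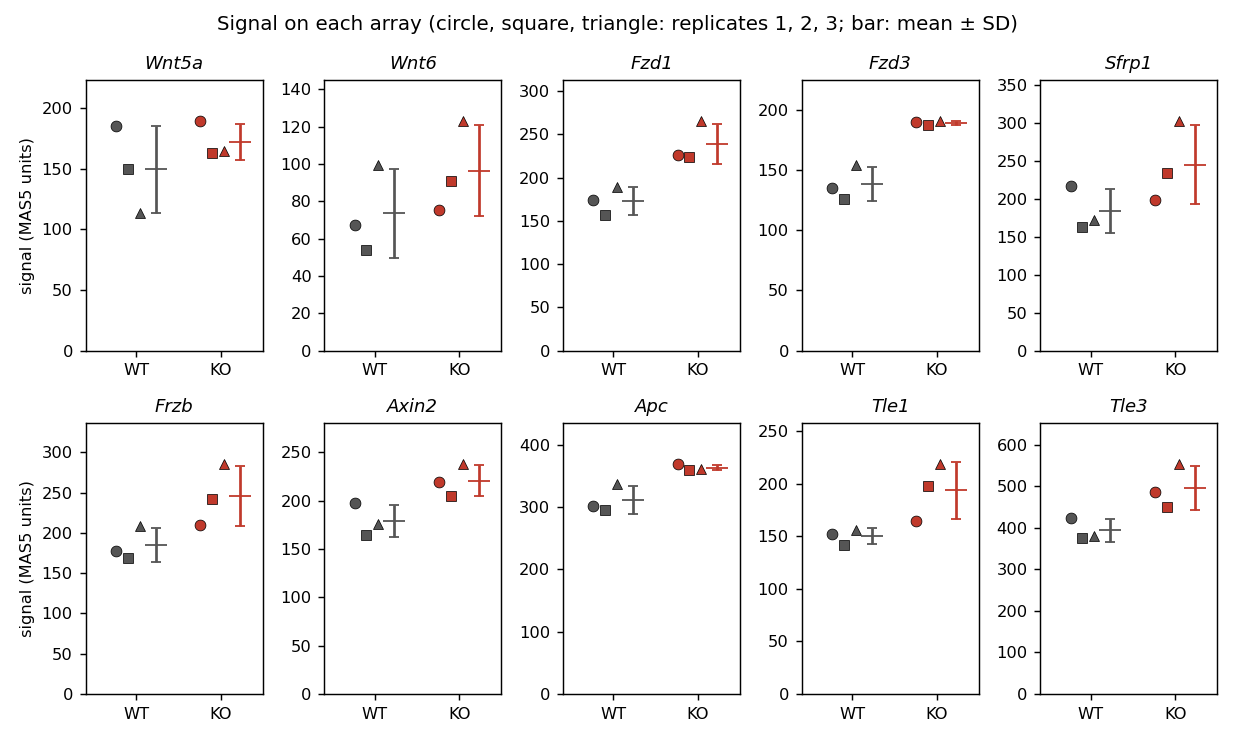
Deposited signal (linear scale, MAS5 units, each axis from 0) of 10 WNT genes on each WT and KO array, with the group mean and SD beside the points. Fzd1, Fzd3, Frzb, Axin2, Apc, Tle1 and Tle3 have all 3 KO arrays above all 3 WT arrays, while Wnt5a, Wnt6 and Sfrp1 overlap.

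Of the cytoplasmic transducers, 7 of 8 were tested, 6 had a higher KO mean and none was called, with a median log2 difference of 0.11. At an unadjusted p under 0.05, 2 were higher and 0 lower. Those were Axin2 and Apc. Axin2, a scaffold of the destruction complex and a widely used transcriptional target of β-catenin, had signals of 219, 205 and 238 in KO and 198, 165 and 176 in WT. Every KO array lay above every WT array. The means were 221 ± 16.2 and 179 ± 16.7 (SD, n = 3 each), with a log2 difference of 0.29 (SE 0.0996, 95% confidence interval 0.07 to 0.51, adjusted p = 0.0973). With array weights the Axin2 difference was 0.14 (adjusted p = 0.21 in limma). Axin2 was called in 1 of 16 alternatives, with an adjusted p in limma of 0.047 to 0.244 over all of them. The related scaffold Axin1 was at 0.06 (adjusted p = 0.709).

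Apc, the tumour suppressor that holds the destruction complex together, had signals of 369, 360 and 362 on the KO arrays and 301, 295 and 337 on the WT arrays. The KO arrays were nearly equal and all above WT. The means were 363 ± 4.62 and 311 ± 22.8 (SD, n = 3 each), with a log2 difference of 0.22 (SE 0.0754, 95% confidence interval 0.05 to 0.39, adjusted p = 0.0957). Apc was called in 1 of 16 alternatives, with an adjusted p in limma of 0.00707 to 0.266 over all of them. The kinase Gsk3b, which phosphorylates β-catenin, read 933, 862 and 881 against 835, 859 and 739. The groups were barely apart (log2 difference 0.14, adjusted p = 0.187), and further Gsk3b probe sets ranged from -0.04 to 0.29. Gsk3a was at -0.04 (adjusted p = 0.83), and the Dishevelled adaptors Dvl1 and Dvl2 were at 0.01 (adjusted p = 0.904) and 0.11 (adjusted p = 0.471). Dvl3 was too dim to be tested.

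Of 8 nuclear effectors, 7 were tested, 4 had a higher and 3 a lower KO mean, and none was called. At an unadjusted p under 0.05, 3 were higher and 1 was lower. Ctnnb1, which encodes β-catenin, had signals of 1268, 1171 and 1186 in KO and 1166, 1219 and 1258 in WT. The values were interleaved, with a log2 difference of -0.01 and the narrowest SE of the list (0.0483, 95% confidence interval -0.11 to 0.10, adjusted p = 0.941). The interval leaves room for no more than a small difference in either direction on this probe set, and the other tested Ctnnb1 probe sets gave 0.13 and 0.09.

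Lef1, a DNA-binding partner of β-catenin, was the nuclear gene with the lowest log2 difference. Its signals were 781, 770 and 660 in KO and 812, 877 and 806 in WT. The groups did not overlap, with means of 737 ± 66.8 and 832 ± 39.3 (SD, n = 3 each) and a log2 difference of -0.18 (SE 0.0711, 95% confidence interval -0.33 to -0.02, adjusted p = 0.142). A second, dimmer Lef1 probe set read 35.7, 35.5 and 32 in KO and 47.5, 68 and 42.1 in WT. It pointed the same way, at -0.50 (adjusted p = 0.0944), without overlap and without a call.

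The other TCF factors had values of the opposite sign. Tcf7l2 read 281, 267 and 310 in KO and 263, 232 and 221 in WT, with a log2 difference of 0.26 (SE 0.0942, adjusted p = 0.114). Tcf7l1, often a repressor of β-catenin targets, read 38.5, 42 and 50 in KO and 28.9, 32 and 39.4 in WT, where only WT replicate 3 reached the KO values (log2 difference 0.32, SE 0.153, adjusted p = 0.197). Its second probe set gave 0.49 (adjusted p = 0.125). Lef1 and these genes differ in sign, but the difference between them was not tested.

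Tle1 and Tle3 encode Groucho-type co-repressors that hold TCF target genes silent. Tle3 had signals of 486, 449 and 553 in KO and 425, 376 and 381 in WT, all KO arrays above all WT arrays. The means were 496 ± 52.8 and 394 ± 26.9 (SD, n = 3 each), with a log2 difference of 0.32 (SE 0.0872, 95% confidence interval 0.13 to 0.52), and the adjusted p of 0.0509 in limma lay just outside the threshold. It passed in 5 of 16 alternatives, with an adjusted p of 0.02 to 0.126 over all of them. Tle1 read 165, 198 and 219 against 153, 142 and 156, again without overlap (log2 difference 0.35, SE 0.114, 95% confidence interval 0.09 to 0.60, adjusted p = 0.0895). Tle1 passed in 3 of 16 alternatives, with an adjusted p in limma of 0.0206 to 0.244 over all of them. The second probe sets of Tle3 and Tle1 gave 0.22 and 0.20. Bcl9, a co-activator that binds β-catenin, was at -0.07 (adjusted p = 0.683).

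Of the 41 WNT genes with a value, 19 had more than 1 tested probe set, which gave 31 further measurements. Of these, 25 had the same sign as the brightest probe set of their gene and 0 were called (6 at an unadjusted p under 0.05). The plot of all tested probe sets shows Fzd6, Lrp6, Dvl1, Gsk3b and Ctnnb1 with points on both sides of 0.

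**Figure D3:**
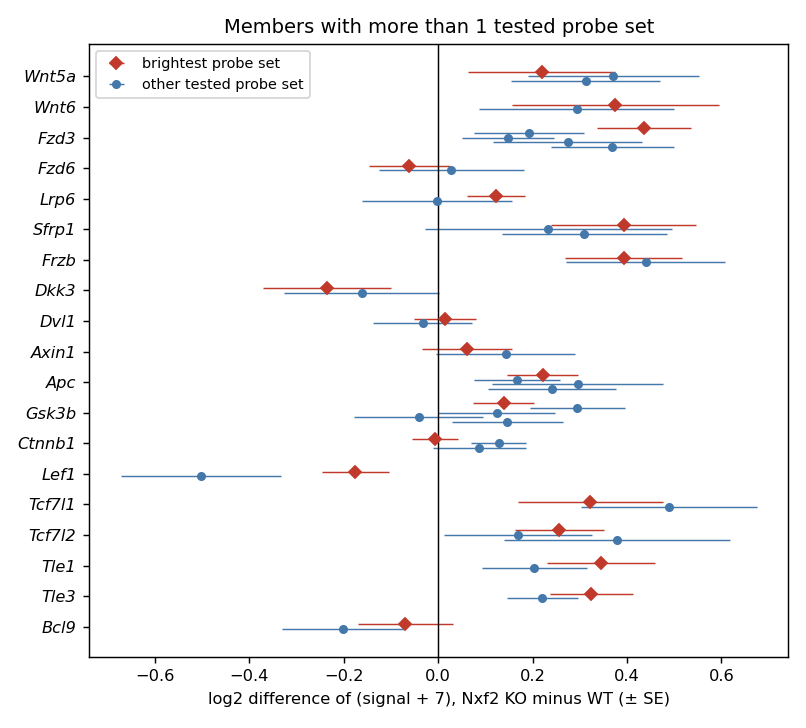
Log2 difference of (signal + 7), KO minus WT, ± SE, for every tested probe set of the 19 WNT genes with more than 1; diamonds are the brightest probe set of a gene and circles the others. The second Lef1 probe set (-0.50) and the second Tcf7l1 probe set (0.49) lie farthest from 0.

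The arrays did not contribute equally. KO replicate 3 was the highest of the 6 arrays in 15 of the 31 genes and KO replicate 1 in 8, and WT replicate 2 was the lowest in 16. The median log2 value of the 31 genes relative to the WT mean was 0.13, 0.15 and 0.22 on the KO arrays and 0.02, -0.06 and 0.04 on the WT arrays. Without KO replicate 3 the median log2 difference of the 31 genes was 0.14, with 25 higher and 6 lower, and none was called (7 at an unadjusted p under 0.05).

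The secreted inhibitors varied most between the KO arrays, with medians of -0.04, 0.37 and 0.66 on KO replicates 1, 2 and 3. Several marker lists had the same order on those arrays, among them the macrophage markers, with medians of 0.13, 0.35 and 0.94, the endothelial markers (0.02, 0.36 and 0.49) and both spermatogonia lists (0.21, 0.30 and 0.39 for undifferentiated, 0.14, 0.23 and 0.29 for differentiating). None of the 9 macrophage markers was called (5 higher and 0 lower at an unadjusted p under 0.05), and their summed signal was 2188 to 3354 in KO and 1499 to 2064 in WT. The fibroblast and fat markers, 1 of 7 called, had medians of 0.01, 0.23 and 0.38 on the same arrays and a summed signal of 3904 to 4743 against 3680 to 3939. Of the peritubular myoid markers none of 6 was called (1 higher and 0 lower at an unadjusted p under 0.05), with medians of -0.20, 0.03 and 0.23 and a summed signal of 2518 to 2889 against 2434 to 2568. For the receptors the KO medians were 0.10, 0.11 and 0.22, and for the Sertoli markers 0.19, 0.19 and 0.32. The part of any of these cell types in the WNT values was not tested.

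**Figure D4:**
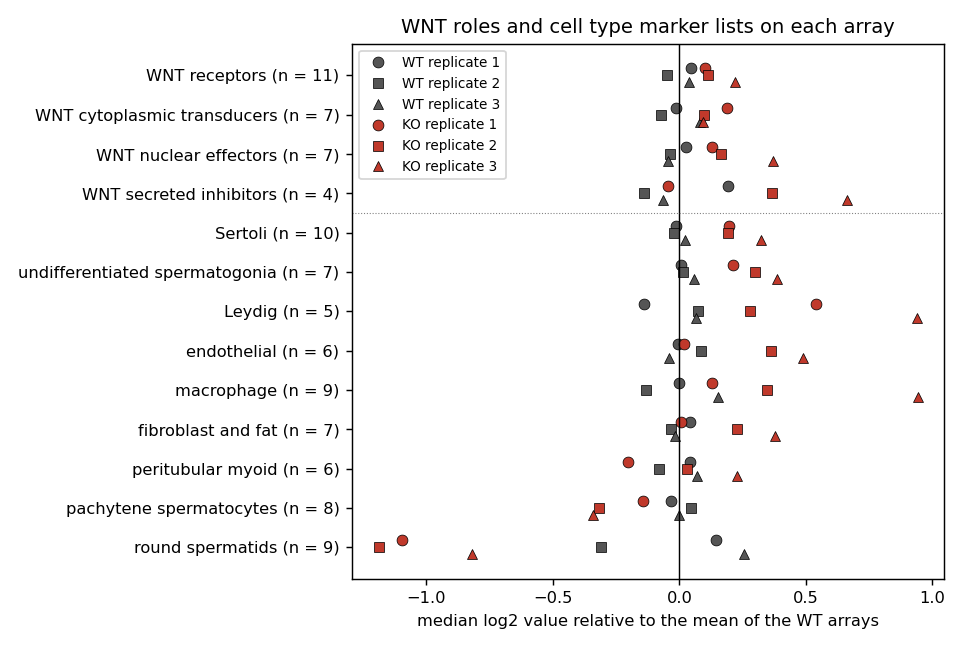
Median log2 value of each WNT role and each cell type marker list on the 6 arrays, as the distance from the WT mean; symbols mark replicates, grey WT and red KO, and n is the number of tested genes. KO replicate 3 is highest for the secreted inhibitors (0.66), the macrophage markers (0.94) and the Leydig markers (0.94), while all KO arrays lie below WT for the round spermatid markers.

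A wider list of 79 further genes of the pathway was read in the same way. Kremen2 had no usable probe set, 27 genes were too dim and 51 were tested. None rose, where 2.98% of all tested genes did, and 1 of 51 fell, Frat1, where 7.37% did. At an unadjusted p under 0.05, 12 were higher and 4 lower, where the shares of all tested genes were 18.5% and 16.4%. The KO mean was higher for 35 and lower for 16, and the median log2 difference was 0.11. Every KO array lay above every WT array in 19 genes (37.3%, against 21.5% of all tested genes) and below in 5 (9.80%, against 18.3%). Frat1, a GSK3-binding protein that promotes β-catenin signalling, had signals of 29.2, 32.9 and 40.4 in KO and 58.3, 50.6 and 53.5 in WT. The groups did not overlap, with means of 34.2 ± 5.7 and 54.1 ± 3.87 (SD, n = 3 each), a 1.49-fold decrease on the scale of signal + 7 (log2 difference -0.58, SE 0.144, adjusted p = 0.0398 in limma). Leaving out KO replicate 1, KO replicate 2 or any WT array ended the call, as did testing without the dim filter or without the intensity trend, and the adjusted p over 15 alternatives ran from 0.000933 to 0.158, with log2 differences from -0.71 to -0.35.

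Its paralog Frat2, singled out after its values were seen, read 76.6, 82.3 and 68.2 in KO and 104, 101 and 97.8 in WT, also without overlap (log2 difference -0.39, adjusted p = 0.0671). In RefSeq the 2 genes are neighbours on chromosome 19 on opposite strands, with starts 18162 bases apart and no annotated gene between them. Their promoter windows share a run of 63 identical bases and a block of 88 bases with 85 identical. Both stop at the end of the Frat1 window, 50 bases after the start, so these lengths are minimums. The block was extended from the run with up to 3 mismatches allowed, so its number of mismatches was set by that rule. The block begins 38 bases before the start of Frat1 and 42 before that of Frat2, so most of it lies after the starts and is not shown. The last 100 bases before each start (GRCm38.p6, chr19:41829870-41829969 on the plus strand for Frat1 and chr19:41848133-41848232 on the minus strand for Frat2) are shown because both genes had lower values in KO, and the identical bases of the block are in capitals.
Frat1: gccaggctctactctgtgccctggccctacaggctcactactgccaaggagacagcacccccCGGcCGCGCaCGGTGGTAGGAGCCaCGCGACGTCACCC
Frat2: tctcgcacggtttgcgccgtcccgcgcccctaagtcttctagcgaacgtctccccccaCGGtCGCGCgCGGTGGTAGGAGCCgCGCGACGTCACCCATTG
Whether probes of either gene also read transcripts of the other was not tested.

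Of the other ligands and the genes that secrete or assist them, all 5 that were tested had a higher KO mean and none was called (3 higher and 0 lower at an unadjusted p under 0.05). The ligand Wnt9a read 48.8, 44.7 and 53 in KO and 40.9, 33.9 and 38 in WT, without overlap (log2 difference 0.32, adjusted p = 0.149). The ligand Wnt5b was at 0.22 (adjusted p = 0.338), with overlap, and Wls, the carrier that takes WNT proteins to the cell surface, was at 0.22 (adjusted p = 0.251), without overlap. Porcn, the acyltransferase that adds the lipid to WNT proteins, read 152, 167 and 229 in KO and 139, 103 and 131 in WT. Its groups did not overlap (log2 difference 0.52, SE 0.16, adjusted p = 0.0759). Rspo4, an R-spondin that strengthens WNT signals through LGR receptors, read 23.8, 30.8 and 29.3 against 21.2, 16 and 21 (log2 difference 0.41, adjusted p = 0.126), without overlap.

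Among the other receptors, Ryk, a WNT-binding receptor of the tyrosine kinase family, read 217, 228 and 230 in KO and 202, 186 and 195 in WT (log2 difference 0.20, adjusted p = 0.142). Ptk7, a pseudokinase receptor of planar polarity, read 23.6, 24.9 and 26 against 20, 20.9 and 8.88 (log2 difference 0.48, adjusted p = 0.177). Both were without overlap, and for Ptk7 WT replicate 3 was far below the other arrays, with a log2 difference of 0.21 without it. Of the other secreted inhibitors, Dkkl1, a Dickkopf-like protein of developing spermatocytes and spermatids, read 865, 826 and 757 in KO and 932, 976 and 876 in WT (log2 difference -0.18, adjusted p = 0.0965), without overlap. Apcdd1, a membrane-bound WNT inhibitor, read 131, 167 and 219 against 143, 103 and 133 and overlapped (log2 difference 0.41, adjusted p = 0.166). It was 0.23 without KO replicate 3 and 0.18 with array weights.

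Tle2, a further Groucho-type co-repressor, read 62.6, 48.6 and 73.1 in KO and 38.7, 31.6 and 43.4 in WT. Its log2 difference of 0.60 (SE 0.169) had an adjusted p of 0.058, and its groups did not overlap. The groups overlapped for Tle4 (log2 difference 0.12, adjusted p = 0.264) and Tle6 (0.06, adjusted p = 0.768). Daam2, a formin that binds Dishevelled, read 1072, 920 and 1062 against 866, 820 and 908 (log2 difference 0.23, adjusted p = 0.0645), without overlap. Cby1, which binds β-catenin and opposes its activity, read 342, 376 and 308 in KO and 409, 419 and 377 in WT, where KO replicate 2 came close to WT replicate 3 (log2 difference -0.23, adjusted p = 0.118). The widely used β-catenin targets Ccnd1 and Myc, also picked out after their values were seen, gave 0.19 each (adjusted p = 0.27 and 0.39).

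**Figure D5:**
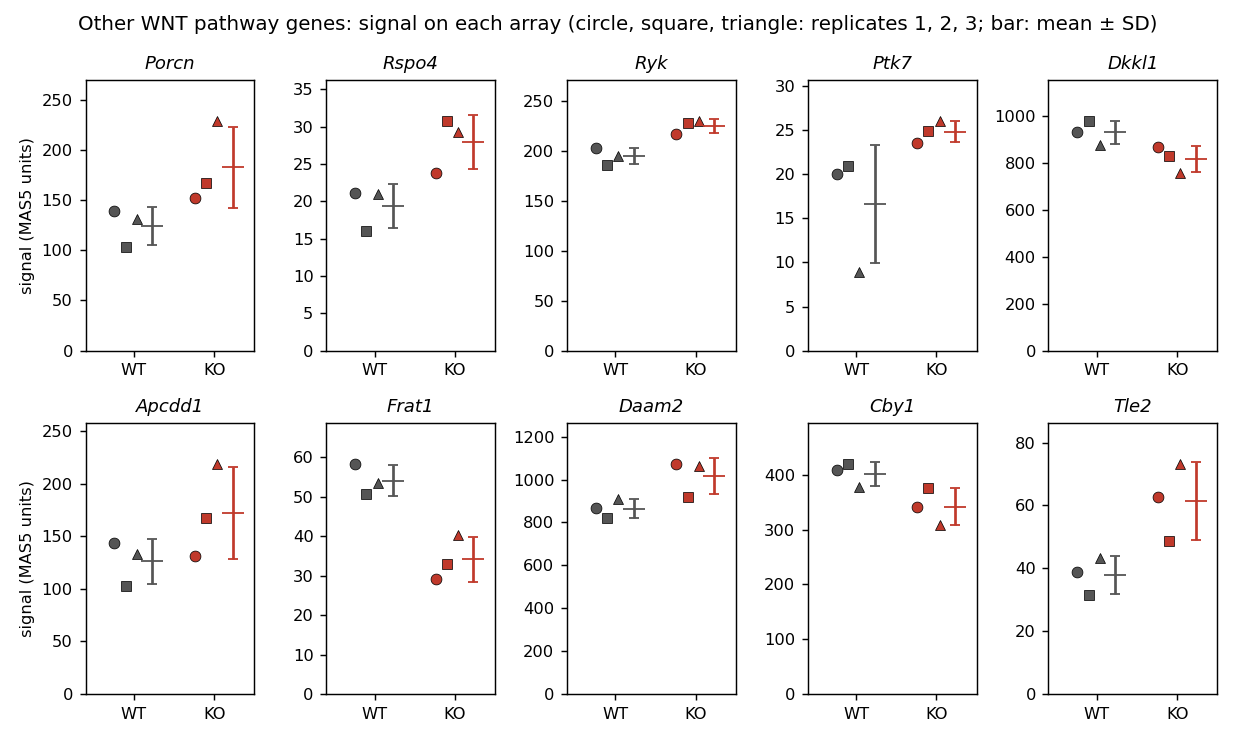
Deposited signal (linear scale, MAS5 units, each axis from 0) of 10 further WNT pathway genes on each WT and KO array, with the group mean and SD beside the points. Frat1, the gene that fell, reads 29.2 to 40.4 in KO and 50.6 to 58.3 in WT, and Apcdd1 is the gene whose groups overlap.

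Of the 27 dim genes of the wider list, 5 (18.5%) had every KO array above every WT array, where 10.1% of all dim genes did, and 1 had every KO array below, where 7.12% did. The 5 were Wnt10b, Rspo1, Rspo2, Fzd10 and Celsr1. Rspo1, an R-spondin known from ovary determination, read 17.1, 18.1 and 31 in KO and 12.5, 11.8 and 12.1 in WT, and Rspo2 read 28, 16.6 and 22.4 against 12.2, 13 and 10.8. With no filter on dim probe sets, their log2 differences were 0.57 and 0.61, neither called (adjusted p = 0.156 and 0.109). The dim gene with lower KO arrays was Notum, an enzyme that removes the lipid from WNT proteins, with 3.93, 2.07 and 1.67 in KO and 9.57, 4.87 and 11.9 in WT (log2 difference -0.70, adjusted p = 0.0901 with no filter). These levels lie below the filter, where a fold change on the scale of signal + 7 is understated.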

How the data were processed

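Total testis RNA was measured in 3 Nxf2 KO and 3 WT samples, grouped by their titles. The authors deposited a table of signal intensity values, linear in scale, for every probe set on every array. MAS5 is named, without a version, in the submitters' processing notes. With 2% trimmed from each end, every array had a mean of 150.0, so a value is relative to its own array. Detection calls were not used here. Genes were named from the platform annotation, using the 34945 of 45101 probe sets with 1 symbol (932 had several), of which 34741 matched RefSeq (GRCm38.p6).

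Tests used log2(signal + 7), with the pseudocount 7 set at the 25th percentile of the values, so the change of dim genes is understated. The 64 control probe sets were left out. A probe set entered the test when its overall mean signal was at least 20.5, the 40th percentile, and 27022 did. KO and WT were compared in R 4.3.3 by limma 3.58.1, using lmFit, then eBayes with its trend option, as a two-sided test without covariates and with Benjamini-Hochberg adjustment over all tested probe sets. The fit was also run on simulated data with independent noise of equal size on every array. These arrays need not have such noise, so that run does not vouch for the calls. Log2 differences are KO minus WT with moderated standard errors (SE), and group values are mean signals ± SD.

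The WNT genes, the wider list and the marker lists were chosen with earlier results of these data known, so no test was made of any list. Genes given on every array by rule were those called, the 2 of lowest p in each role and those without overlap and with a log2 difference over 0.3 in size; of the wider list, those called and the 2 of lowest p in each class. Others given on every array were picked as contrasts after their values were seen. The alternatives were quantile normalization, median centring, other pseudocounts (1 and 39), no filter, a filter at the 60th percentile, no intensity trend, a block for the replicate number, array weights, leaving out each array, and averaging a gene's probe sets.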

Additional observations from a re-analysis of the deposited data

How the results depend on the processing

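In the fit used for the report, limma called 2024 probe sets (610 higher, 1414 lower), 2 WNT genes and 1 gene of the wider list. With array weights these counts were 7217 (3771 higher, 3446 lower), 7 (6 higher, 1 lower) and 13 (8 higher, 5 lower). The 7 WNT genes were Fzd1, Fzd3, Frzb, Apc, Tcf7l1, Tle1 and, called lower, Dkk3. In that fit WT replicate 1 took a weight of 8.37 where the other arrays took 0.375 to 1.37. With no dim filter the counts were 1005, 0 and 0 (11 and 19 of the listed genes at an unadjusted p under 0.05), and with no intensity trend 743, 0 and 0 (10 and 16). Median centring called 1629 probe sets (247 higher, 1382 lower) and 1 WNT gene, Fzd1. Averaging all probe sets of a gene called 3 genes of the wider list, quantile normalization 2, and the 60th percentile filter, under which Frat1 was not tested, 0 (10 at an unadjusted p under 0.05). Leaving out 1 array called 159 (without WT replicate 1) to 1534 probe sets, 0 to 2 WNT genes and 0 to 2 genes of the wider list. No WNT gene was called without KO replicate 3, WT replicate 1 or WT replicate 2, with 6 to 10 at an unadjusted p under 0.05. Tle1 alone was called without KO replicate 1 and Tle3 alone without KO replicate 2, while Fzd1 and Fzd3 were called without WT replicate 3. Of the wider list, Daam2 and Tle2 were called without KO replicate 2 and Frat1 without KO replicate 3. The log2 difference of Wnt5a turned to -0.047 with array weights. The submitters describe 3 pairs of WT and KO testes but tie no replicate number to a pair. Same-numbered samples correlated at 0.0793, 0.457 and 0.266 in their deviations from the group means. Differently numbered samples correlated at -0.334 to 0.112, and only WT replicate 1 with KO replicate 3 (0.112) gave a positive value. These values do not settle whether the numbers mark the pairs, and the main fit is unpaired. With the replicate block, 4503 probe sets (2173 higher, 2330 lower), 6 WNT genes and 8 genes of the wider list were called, among them Frzb (adjusted p = 0.0147), Tle3 (0.02), Tle1 (0.0417) and Axin2 (0.047). Where a value moved, the cause was not tested. Dim genes and the 3 arrays per group limit the precision.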
